A study of Mus musculus with 12 samples.

Results

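Cholesterol and fatty acid synthesis were followed through 32 genes in mouse embryonic stem cells given L-proline, budesonide or both. The genes were taken by symbol from a list of 18 sterol synthesis enzymes, 6 sterol regulators and 8 fatty acid synthesis enzymes, out of 53819 gene symbols counted. All 32 passed the filter on low counts, among 13852 genes tested. The cells were the E14 line, a widely used mouse embryonic stem cell line, in flat (2D) culture, and messenger RNA was counted from its 3′ end. Of the 4 groups, each of 3 libraries, the first received proline, the second budesonide and the third both compounds at once, all for 72 h. The last was untreated control, with no time given, so any difference in culture time cannot be told apart from treatment in comparisons against control. Budesonide is a synthetic glucocorticoid, and proline is an amino acid known to move such cells away from the naive pluripotent state. The labels give no dose, name no vehicle for the controls, and do not say whether the 3 libraries of a group came from separate cultures, so the p-values measure the spread between libraries, which may be technical.

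Cholesterol is built from acetyl-CoA through mevalonate, squalene and lanosterol, and the fatty acid branch draws on the same acetyl-CoA. The transcription factors encoded by Srebf1 and Srebf2 wait in the endoplasmic reticulum, bound to the escort protein Scap. Insig proteins hold Scap back when sterols are plentiful; when sterols are low, the factors travel to the Golgi, are cut, and switch on the enzymes of both branches. Embryonic stem cells divide fast and need both products for new membranes.

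Totals ran from 5299432 to 15921283 counts per library, and each gene is given in CPM, its count scaled to a common library size. Libraries control 3 and budesonide 3 stood apart: 6.57% and 8.43% of the genes tested were at 0 there, while the remaining 10 libraries had 1.39% to 5.77%. All 10 embryonic stem cell markers were detected in every group, and summed to 1310 to 1560 CPM in proline libraries, 2110 to 2480 in budesonide libraries, 2290 to 2390 where both were given and 2070 to 2590 in control. Markers of other cells were low: 8 fibroblast markers summed to 17.6 to 22.9 CPM with proline, 5.73 to 12.5 with budesonide, 2.15 to 6.29 with both and 9.64 to 19.3 in control. Of these fibroblast markers, 2 had no count in any library. Endoderm markers, of which 1 of 8 was at 0 throughout, summed to 23.8 to 26.8 CPM with proline, 5.4 to 14.4 with budesonide, 15.2 to 22.9 with both and 9.72 to 13.6 in control. The 8 neuroectoderm markers summed to 47.8 to 56.5, 68.7 to 76.5, 80.7 to 101 and 54.3 to 64.2 CPM in the proline, budesonide, both and control groups. The part of these shifts in the lipid gene results was not tested, and in such bulk libraries fewer cells of a type and less RNA per cell cannot be told apart.

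Promoter windows of the 250 bases before the start were read from RefSeq (GRCm38.p6) for 25 of the 32 genes, 33 windows in all. None was read for Fdps, Fdft1, Sqle, Stard4, Scd1, Scd2 and Fads1. The 5 below belong to an early enzyme of the pathway (Hmgcs1) and to genes whose transcripts changed (Srebf2, Fasn, Cyp51 and Insig1). Capitals mark 2 motifs searched on both strands: TCACNCC, the core of the sterol response element that the Srebf proteins bind, and CCAAT, the box of their partner NF-Y. Where the core is part of the longer element TCACNCCAC, as in Hmgcs1, the whole longer element is in capitals. The windows are chr13:119690101-119690350 on the plus strand for Hmgcs1, chr15:82147019-82147268 on the plus strand for Srebf2, chr11:120824548-120824797 on the minus strand for Fasn, chr5:4104698-4104947 on the minus strand for Cyp51 and chr5:28071162-28071411 on the plus strand for Insig1, each written 5′ to 3′ on the strand of its gene.
Hmgcs1: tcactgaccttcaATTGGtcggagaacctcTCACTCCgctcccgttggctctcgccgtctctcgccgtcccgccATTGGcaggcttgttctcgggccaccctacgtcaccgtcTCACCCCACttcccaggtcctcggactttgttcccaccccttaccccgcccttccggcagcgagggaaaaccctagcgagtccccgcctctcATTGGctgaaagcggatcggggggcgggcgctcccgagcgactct
Srebf2: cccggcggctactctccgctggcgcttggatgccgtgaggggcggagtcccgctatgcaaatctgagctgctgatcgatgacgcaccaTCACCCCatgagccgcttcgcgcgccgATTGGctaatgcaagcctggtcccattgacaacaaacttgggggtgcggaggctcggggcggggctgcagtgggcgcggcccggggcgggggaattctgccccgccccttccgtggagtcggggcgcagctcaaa
Fasn: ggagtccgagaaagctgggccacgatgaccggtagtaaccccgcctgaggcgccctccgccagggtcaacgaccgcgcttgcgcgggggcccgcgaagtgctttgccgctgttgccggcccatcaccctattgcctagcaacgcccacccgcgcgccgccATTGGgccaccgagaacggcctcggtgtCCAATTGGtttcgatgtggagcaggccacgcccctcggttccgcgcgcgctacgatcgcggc
Cyp51: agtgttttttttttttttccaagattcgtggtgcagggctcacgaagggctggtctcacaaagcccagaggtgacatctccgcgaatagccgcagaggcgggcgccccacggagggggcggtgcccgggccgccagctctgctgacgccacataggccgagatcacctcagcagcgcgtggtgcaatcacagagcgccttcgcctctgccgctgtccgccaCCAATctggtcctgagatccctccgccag
Insig1: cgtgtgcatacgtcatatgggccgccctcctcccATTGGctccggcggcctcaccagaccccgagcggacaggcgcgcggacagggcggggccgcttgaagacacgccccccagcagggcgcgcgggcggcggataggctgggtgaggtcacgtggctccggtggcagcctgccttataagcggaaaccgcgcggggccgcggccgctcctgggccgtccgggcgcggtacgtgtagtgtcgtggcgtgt

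The longer element TCACNCCAC, which contains the core, was in the Hmgcs1 window and in no other window of the list, and in 1.05% of all 32851 windows in the table. The core alone was in 6 of the 33 windows, or 18.2%, against 13.4% of all windows. A CCAAT box was in 20 of the 33 windows, or 60.6%, against 33.8% of all windows. In the Fasn window a pair of CCAAT matches on opposite strands overlap. These are matches of letters within a short window and carry no information on binding in these cells.

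The summed transcript level of the list was higher in all the treated groups than in control, and highest with both compounds. Such a sum is weighted towards the abundant genes. Of the 32 log2 changes, 27 were above 0 with proline, 21 with budesonide and 28 with both against control. For both against proline 18 were above 0 and 14 below. Summed over the 32 genes, the level was 2175, 2033 and 2186 CPM with proline, 1931, 2069 and 2097 CPM with budesonide, 2367, 2335 and 2355 CPM with both, and 1677, 1648 and 1842 CPM in control. Every treated library lay above every control library, and the libraries given both lay above all others. The sterol enzymes summed to 944 ± 40.8 CPM with proline, 795 ± 43.3 with budesonide, 910 ± 19.6 with both and 763 ± 38.9 in control (SD, n = 3). The fatty acid enzymes summed to 972 ± 25.0, 997 ± 77.1, 1146 ± 32.3 and 774 ± 83.0 CPM in the same order of groups. The sterol sum was thus high in the groups that received proline, while the fatty acid sum was above control in every treated group.

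**Figure D1:**
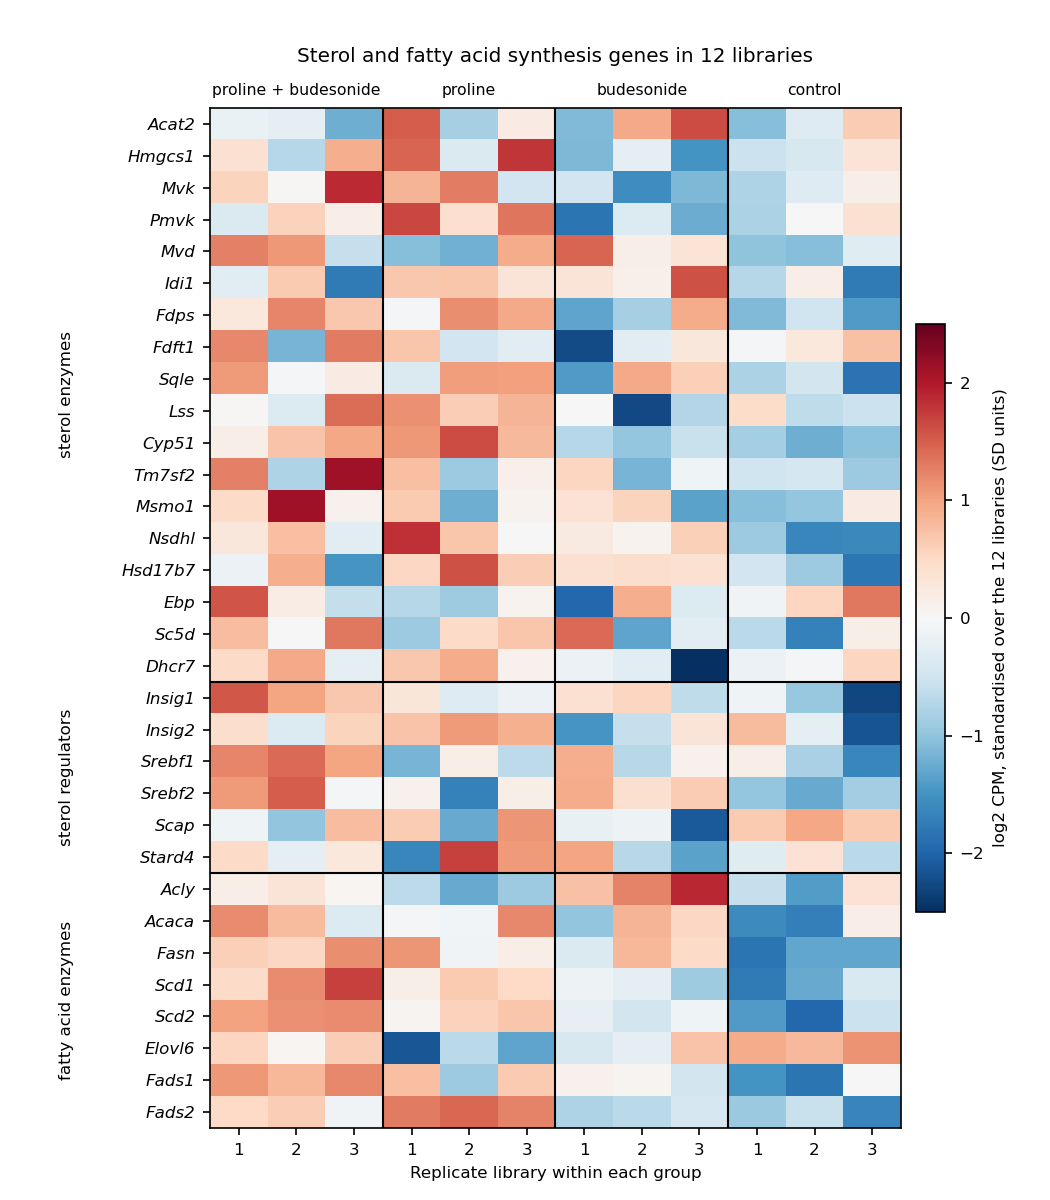
Log2 CPM of the 32 genes (rows, in pathway order, sterol enzymes above sterol regulators above fatty acid enzymes) in the 12 libraries (columns, 3 per group), standardised per gene over the libraries. Control libraries (right) are below average (blue) for Fasn, Scd1, Scd2 and Fads2 and above average (red) for Elovl6, while libraries given both compounds (left) are above average for Insig1, Srebf1, Scd1 and Scd2.

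Each gene was tested with edgeR's quasi-likelihood test, adjusted over all 13852 genes by the Benjamini-Hochberg method, and only genes with an adjusted p below 0.05 are called, as risen or fallen. With proline against control, 7 of the 32 genes rose and 1 fell, where 3.17% of all tested genes rose and 4.71% fell. With budesonide against control 3 rose and none fell, where 2.51% of all genes rose and 4% fell. There 10 of the 32 had an unadjusted p below 0.05 in edgeR, as did 2769 of all 13852 genes. With both compounds against control 8 rose and none fell, where 3.34% rose and 3.83% fell. The shares of the list called, 8 of 32, 3 of 32 and 8 of 32, stand beside 7.88%, 6.51% and 7.17% of all genes called in either direction. The median log2 change of the list was 0.39 with proline, 0.30 with budesonide and 0.55 with both, beside −0.01, 0.01 and 0.01 over all genes. These comparisons share the control libraries, so the counts are not independent of each other. Libraries did not overlap for 12 genes that were higher and 1 that was lower with proline, for 7 and 2 with budesonide and for 12 and 1 with both, where 26.7%, 23.7% and 28.4% of all genes did not overlap in either direction.

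**Figure D2:**
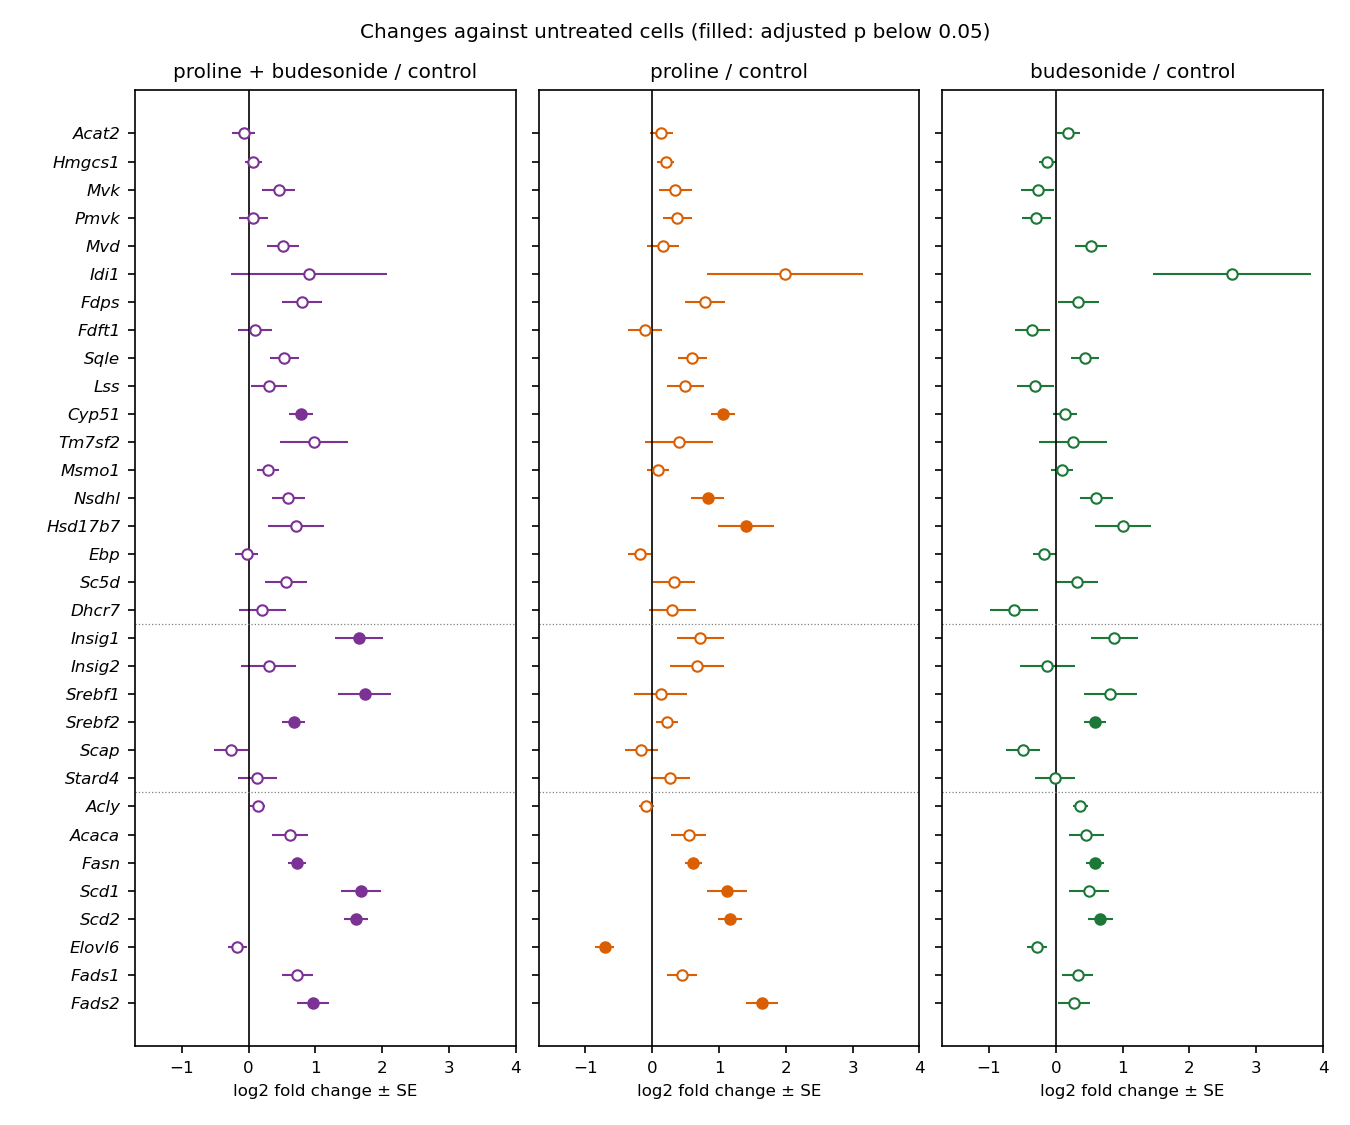
Log2 fold changes (points) with standard errors (bars) of the 32 genes against untreated control, with both compounds, with proline and with budesonide from left to right. Filled points passed the test: 8, 8 and 3 genes, all to the right of 0 except Elovl6 with proline.

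Among the 18 sterol enzymes, 3 rose with proline, 0 with budesonide and 1 with both compounds against control, and none fell. Of all genes tested 7.88%, 6.51% and 7.17% were called in these comparisons. As only 4.71%, 4% and 3.83% of all genes fell, nothing is read from the absence of falls. With budesonide 4 of the 18 had an unadjusted p below 0.05 in edgeR, near the share of all genes, 2769 of 13852. The risers act late in the pathway, where methyl groups are removed from lanosterol and its products. Cyp51, the lanosterol demethylase, had 76.6, 91.9 and 69.9 CPM with proline, 42.3, 38.9 and 44.5 CPM with budesonide, 56.3, 67.7 and 73.8 CPM with both, and 40.6, 35.9 and 38.1 CPM in control. All libraries that received proline lay above all that did not. The log2 change was 1.06 ± 0.18 (SE) with proline (adjusted p = 0.000361) and 0.79 ± 0.18 with both (adjusted p = 0.00681) against control, and both calls held under all 13 alternatives. With budesonide it was 0.13 ± 0.18 (adjusted p = 0.763). The annotated exons of Cyp51 overlap those of Akap9 on the opposite strand, and the strand setting of the counting is not given in the sources used here. Akap9 fell with proline, by 0.71 on the log2 scale (adjusted p = 0.0316), while Cyp51 rose.

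Nsdhl and Hsd17b7, which with Msmo1 strip the methyl groups at the next position of the sterol ring, were the other risers with proline. Nsdhl had 39.1, 29.5 and 24.7 CPM with proline, 26.2, 25.3 and 28.7 with budesonide, 26.6, 29.8 and 23.1 with both, and 19.6, 16.4 and 16.5 in control. Hsd17b7 had 13.5, 22.8 and 14 CPM with proline, 12.5, 12.9 and 12.5 with budesonide, 9.69, 16.2 and 4.94 with both, and 8.18, 6.55 and 4.16 in control. In both genes every library given proline alone or budesonide alone lay above every control library. The log2 changes with proline were 0.83 ± 0.25 for Nsdhl (adjusted p = 0.0372) and 1.41 ± 0.42 for Hsd17b7 (adjusted p = 0.0385). With budesonide they were 1.53-fold and 2.01-fold, not called (adjusted p = 0.155 and 0.17). Msmo1, the oxidase that opens this step, stood at 79.2 ± 9.86 CPM with proline, 79.4 ± 10.6 with budesonide, 91.2 ± 13.3 with both and 74.4 ± 7.15 in control, and did not pass any test.

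The proline calls of Nsdhl and Hsd17b7 lie near the threshold. With 1 library left out where a call was lost, the log2 change was 0.63 to 0.93 for Nsdhl and 1.13 to 1.65 for Hsd17b7. The Nsdhl call was lost without control 1 (adjusted p = 0.0675), control 2 (0.134), control 3 (0.1), proline 1 (0.241) or proline 2 (0.0683), and also with no low-count filter (0.0606) and with only the groups compared (0.0523). The Hsd17b7 call was lost without control 1 (0.0525), control 2 (0.102), control 3 (0.148), proline 1 (0.057), proline 2 (0.19) or proline 3 (0.0631).

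No early enzyme, from acetyl-CoA to the isoprenoids, was called against control. Hmgcs1, which makes HMG-CoA, had 234, 189 and 244 CPM with proline, 173, 192 and 166 with budesonide, 207, 182 and 220 with both, and 186, 189 and 205 in control. These groups overlapped, and the 95% interval of the log2 change was −0.06 to 0.47 with proline and −0.19 to 0.33 with both. Acat2, the thiolase at the entry, was between 96.2 and 115 CPM in mean in the 4 groups, and its near copy Acat3 had 41 counts in all libraries together. Mvk, Pmvk and Mvd, which phosphorylate and decarboxylate mevalonate, had log2 changes of 0.35, 0.37 and 0.16 with proline, −0.27, −0.29 and 0.53 with budesonide, and 0.45, 0.07 and 0.52 with both, none called. Fdps, the farnesyl diphosphate synthase, stood at 24.3 ± 4.64 CPM with proline, 17.7 ± 7.12 with budesonide, 24.4 ± 3.83 with both and 14.0 ± 2.16 in control. Its proline libraries did not overlap the control libraries, but the change of 0.79 ± 0.30 was not called (adjusted p = 0.121). Idi1, the isopentenyl isomerase, was near the detection limit: 20 to 67 counts per library with proline, 14 to 101 with budesonide, 0 to 29 with both and 0 to 12 in control. Its SD was up to 121% of the group mean, and no change was called.

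In the middle and end of the pathway, Sqle, the squalene epoxidase and a control point of the route, had 63.5, 91 and 90.7 CPM with proline, 48.3, 88.8 and 81.3 with budesonide, 91.7, 68.7 and 73.2 with both, and 56.8, 61.7 and 43 in control. The libraries given proline, alone or with budesonide, lay above control. The log2 change with proline was 0.60 ± 0.21 (adjusted p = 0.0952). Fdft1, the squalene synthase before it, had log2 changes of −0.11 with proline, −0.35 with budesonide and 0.10 with both. Lss, which folds the epoxide to lanosterol, had 0.50, −0.31 and 0.30. Of the closing enzymes, the reductase Dhcr7 had 0.30, −0.63 and 0.21, the desaturase Sc5d 0.32, 0.32 and 0.56, the isomerase Ebp −0.19, −0.17 and −0.03, and the reductase Tm7sf2 0.40, 0.26 and 0.98 in the same 3 comparisons. None of these passed the test. Tm7sf2 shares annotated exon sequence with Vps51 on the same strand, so its reads may have been split.

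Of the 18 sterol enzymes, 8 had their highest mean level with proline, 6 with both, 3 with budesonide and 1 in control. The lowest mean was in control for 10 and with budesonide for 6. The median log2 change of the enzymes was 0.36 with proline, 0.16 with budesonide and 0.49 with both against control, with 16, 11 and 16 of the 18 above 0.

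Among the 6 sterol regulators, none was called with proline, 1 rose with budesonide and 3 rose with both compounds. The shares of all genes called in these comparisons were 7.88%, 6.51% and 7.17%. With proline 0 of the 6 had an unadjusted p below 0.05 in edgeR, beside 2671 of all 13852 genes. The risers with both were Srebf1, Srebf2 and Insig1, the genes of the transcription factors and of one of their retention proteins. Srebf1, whose product mainly drives fatty acid synthesis, had 10, 24.4 and 14 CPM with proline, 39.8, 13.6 and 23.4 with budesonide, 49.1, 55.4 and 41.8 with both, and 23.9, 12.7 and 7.25 in control. Every library given both lay above all others, while the remaining groups overlapped and varied widely. The log2 change was 1.74 ± 0.40 for both against control (adjusted p = 0.00744) and 1.61 ± 0.39 for both against proline (adjusted p = 0.00861). With proline alone it was 0.13 ± 0.40 and with budesonide alone 0.82 ± 0.39 (adjusted p = 0.921 and 0.248). Counts are per gene, so isoforms from the alternative promoters of Srebf1 are not separated.

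Srebf2, whose product mainly drives sterol synthesis, had 117, 75.8 and 118 CPM with proline, 143, 126 and 133 with budesonide, 148, 165 and 113 with both, and 90.2, 84 and 92.5 in control. It rose by 0.59 ± 0.17 with budesonide (adjusted p = 0.0343) and by 0.67 ± 0.17 with both (adjusted p = 0.0142). Insig1, itself a target of the factors it restrains, had 25.2, 17.6 and 19.6 CPM with proline, 26.2, 28.7 and 14.8 with budesonide, 51.2, 36.8 and 31.2 with both, and 20, 12.3 and 5.71 in control. All libraries given both were above all others, and the log2 change against control was 1.65 ± 0.36 (adjusted p = 0.0048). With a single compound it was 0.72 ± 0.35 with proline and 0.87 ± 0.35 with budesonide, neither called (adjusted p = 0.264 and 0.156).

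The related Insig2, the escort gene Scap and the cholesterol carrier gene Stard4 did not pass any test. Insig2 stood at 15.2 ± 1.11 CPM with proline, 8.70 ± 3.13 with budesonide, 11.7 ± 2.15 with both and 9.51 ± 5.12 in control, with its highest mean under proline, where Insig1 had its highest under both. Scap stood at 32.6 ± 8.62, 26.1 ± 6.14, 30.4 ± 6.14 and 36.6 ± 1.56 CPM in the same groups, and Stard4 ran from 15.6 to 35.2, 16.9 to 29.5, 22.1 to 26.1 and 19.7 to 25.4 CPM. Insig1 passed the test for budesonide against control only without control 1 (adjusted p = 0.0368), and Srebf2 for both against proline without both 3 (0.0371). The Srebf2 call with budesonide was lost when any of these libraries was left out: control 1 (adjusted p = 0.0774), control 2 (0.114), control 3 (0.0576), budesonide 1 (0.105), budesonide 3 (0.0657); and that with both without control 2 (0.059), both 1 (0.0611) or both 2 (0.109). The call of Srebf1 for both against proline was lost without proline 1 (adjusted p = 0.0602), while its call against control and that of Insig1 held under all 13 alternatives.

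**Figure D3:**
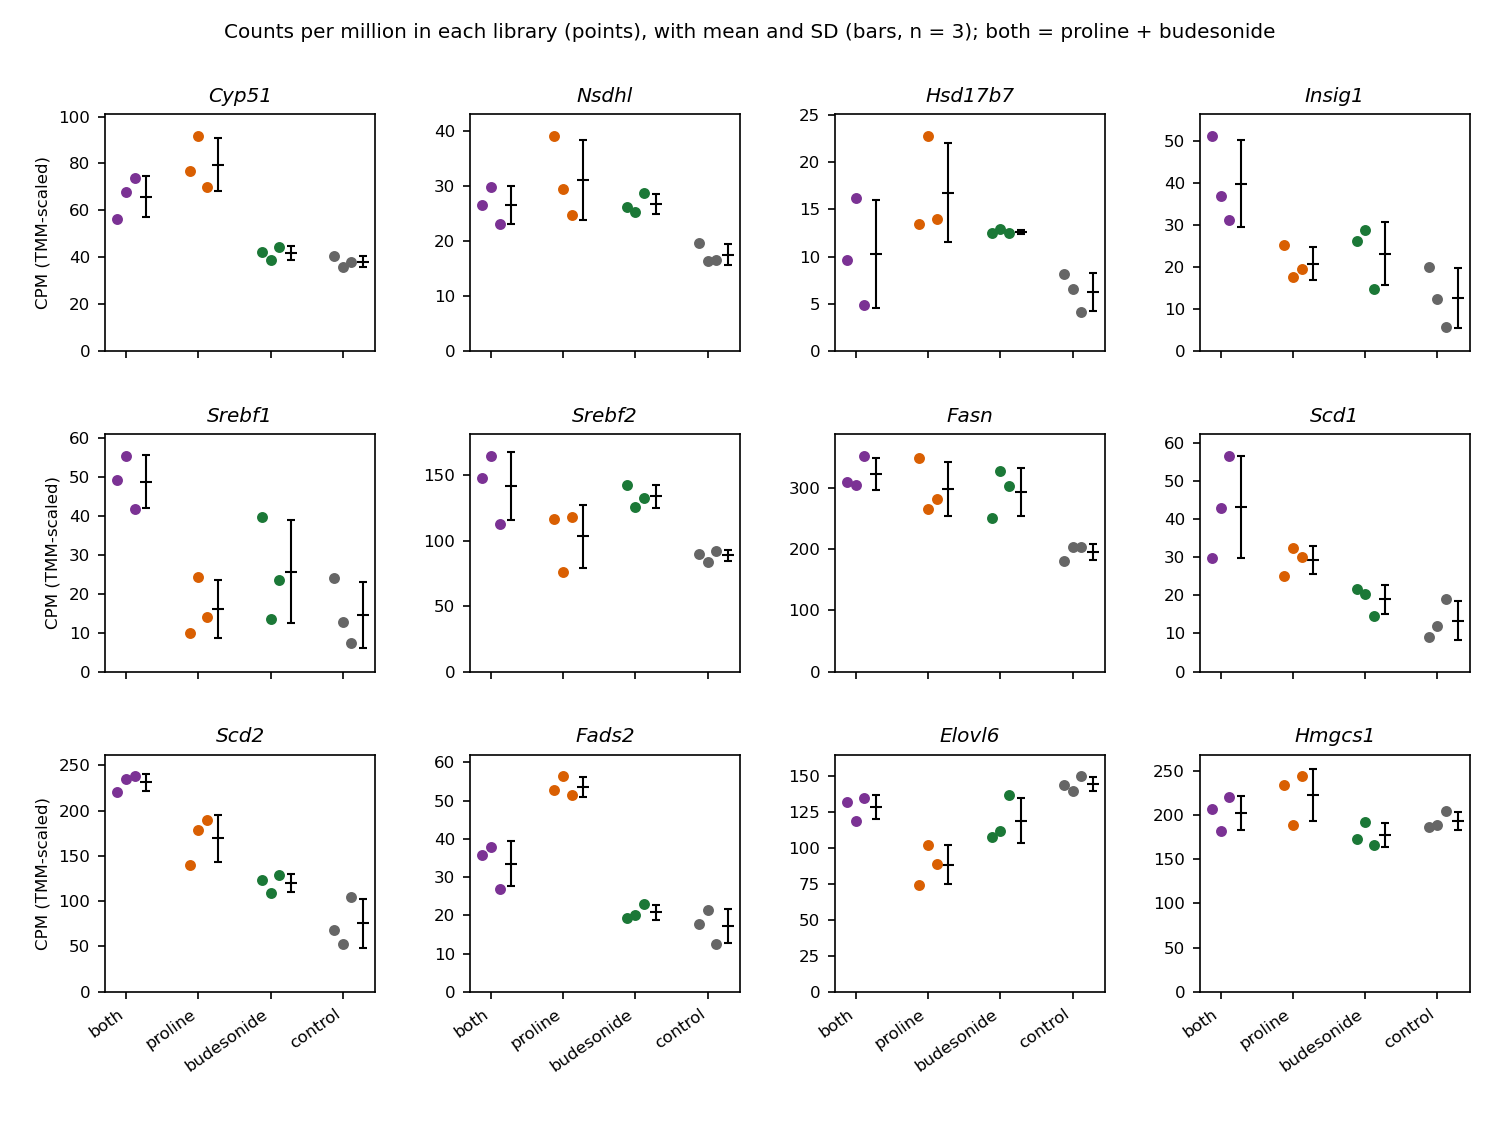
CPM (y axis, from 0) of 12 genes in each library (points, 3 per group) with the mean and SD beside them. Cyp51 is high in the groups given proline, Srebf1 and Insig1 are highest with both compounds, Fads2 is highest with proline alone, and Elovl6 is lowest there.

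The fatty acid branch had called genes in all the treated groups. Of its 8 enzymes, 4 rose and 1 fell with proline, 2 rose with budesonide, and 4 rose with both. Beside these stand 7.88%, 6.51% and 7.17% of all genes called in either direction. Fasn, the synthase that builds palmitate, rose in all the treated groups. It had 349, 266 and 282 CPM with proline, 251, 328 and 303 with budesonide, 311, 305 and 353 with both, and 181, 204 and 203 in control. No treated library overlapped control, and the log2 changes were 0.61 ± 0.13 with proline (adjusted p = 0.00332), 0.59 ± 0.13 with budesonide (0.00662) and 0.72 ± 0.13 with both (0.000988).

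The stearoyl-CoA desaturase genes Scd1 and Scd2, which make monounsaturated fatty acids, rose with proline and with both. Scd2 had 140, 179 and 190 CPM with proline, 123, 109 and 129 with budesonide, 220, 235 and 238 with both, and 68.6, 52.8 and 105 in control. Its groups did not overlap, in the order both, proline, budesonide and control. The log2 change was 1.16 ± 0.18 with proline (adjusted p = 0.000154), 0.67 ± 0.18 with budesonide (0.0255) and 1.61 ± 0.18 with both (6.16e-06), or 3.05-fold for both against control. Scd1 had 25.2, 32.6 and 30.2 CPM with proline, 21.8, 20.5 and 14.6 with budesonide, 29.8, 43.1 and 56.7 with both, and 9.16, 12 and 19.1 in control. It rose by 1.12 ± 0.30 with proline (adjusted p = 0.0189) and by 1.68 ± 0.30 with both (0.000884), and stood at 0.49 ± 0.30 with budesonide (0.383). The neighbouring Scd3 had 266 counts over all libraries and Scd4 had 0, and reads shared with these copies may have been split.

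A polyunsaturated fatty acid desaturase and a chain elongase moved in opposite directions with proline. Fads2, the desaturase that starts the polyunsaturated route, had 52.9, 56.4 and 51.4 CPM with proline, 19.2, 20.1 and 22.9 with budesonide, 35.8, 37.9 and 26.8 with both, and 17.8, 21.4 and 12.5 in control. It rose by 1.64 ± 0.24 with proline (adjusted p = 7e-05), or 3.11-fold, and by 0.96 ± 0.24 with both (0.014). Elovl6, which lengthens palmitate to stearate, was the member that fell: 74.4, 102 and 88.9 CPM with proline, 108, 112 and 137 with budesonide, 132, 119 and 135 with both, and 144, 140 and 150 in control. Its log2 change was −0.71 ± 0.15 with proline (adjusted p = 0.00245), −0.28 ± 0.14 with budesonide (0.288) and −0.17 ± 0.14 with both (0.582). The libraries given proline alone lay below all others.

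The remaining fatty acid enzymes were not called. Acly, which makes cytosolic acetyl-CoA from citrate, was highest with budesonide: 271, 249 and 261 CPM with proline, 330, 354 and 388 with budesonide, 304, 311 and 299 with both, and 274, 244 and 312 in control. The budesonide libraries did not overlap control, at a log2 change of 0.37 ± 0.11 (adjusted p = 0.0556). Acaca, the acetyl-CoA carboxylase, had log2 changes of 0.55 ± 0.26, 0.46 ± 0.26 and 0.62 ± 0.26 with proline, budesonide and both. Fads1, the partner desaturase of Fads2, had 0.45 ± 0.23, 0.33 ± 0.23 and 0.73 ± 0.23 (adjusted p = 0.297, 0.477 and 0.0581). Without control 3, Acly was called with budesonide (adjusted p = 0.0243) and Fads1 with both (0.0258).

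The proline call of Scd1 was lost without control 1 (adjusted p = 0.112), control 2 (0.0811), proline 2 (0.0656) or proline 3 (0.0582), that of Scd2 with budesonide without control 1 (0.093), control 2 (0.142), budesonide 1 (0.0638) or budesonide 3 (0.0721), and that of Fads2 with both without control 3 (0.0782), both 1 (0.0673) or both 2 (0.0858). The calls of Fasn, Scd2, Elovl6 and Fads2 with proline, and of Fasn, Scd1 and Scd2 with both, held under all 13 alternatives.

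All 3 genes that rose with budesonide, Srebf2, Fasn and Scd2, have long transcripts, and in that comparison the log2 change of all genes went with transcript length. The longest annotated transcripts were 5077 bases for Srebf2, 10050 for Fasn and 5455 for Scd2, beside a median of 3204 bases over the tested genes. Over all genes the median log2 change with budesonide was −0.18 for transcripts up to 1 kb, 0.11 for 4 to 8 kb and 0.21 above 8 kb. With an offset for length in the fit, the changes were 0.49 for Srebf2 (adjusted p = 0.0862), 0.37 for Fasn (0.11) and 0.55 for Scd2 (0.0823), so no member was called with budesonide. The same offset left 8 calls for proline and 8 for both against control. For both against proline the median over all genes was −0.11 up to 1 kb, 0.11 for 4 to 8 kb and 0.30 above 8 kb, and the members called there, Srebf1 (4299 bases) and Elovl6 (5951 bases), are long too. With the offset 1 member was called in that comparison, Srebf1, and Elovl6 was not, at 0.45 (adjusted p = 0.0532).

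**Figure D4:**
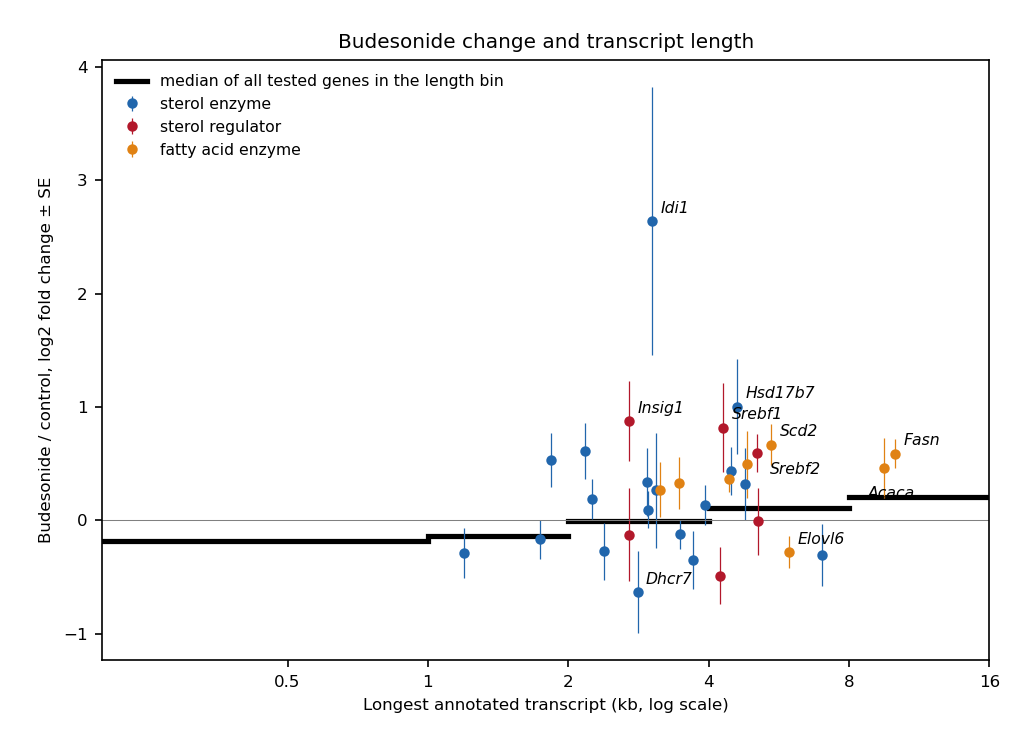
Log2 fold change of budesonide over control (y axis, points with standard errors) against the longest annotated transcript (x axis, kb, log scale) for the 32 genes, with black lines at the median of all tested genes in each length bin. The line climbs to 0.21 above 8 kb, where Fasn and Acaca lie, and Srebf2 and Scd2 lie in the bin from 4 to 8 kb.

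Set against proline alone, cells given both compounds had higher Srebf1 and Elovl6. These were the only 2 of the 32 that rose, and none fell, where 5.83% of all tested genes rose, 4.27% fell and 10.1% were called in either direction, so the called share of the list was below the background. Libraries did not overlap for 6 higher and 2 lower members, where 16.3% and 15.6% of all genes did not. Elovl6 was 132, 119 and 135 CPM with both, against 74.4, 102 and 88.9 CPM with proline, a log2 change of 0.54 ± 0.14 (adjusted p = 0.0167). Fads2 was lower with both in every library, but its change of −0.68 ± 0.23 was not called (adjusted p = 0.0648). Insig1 and Srebf2 had 0.93 ± 0.34 and 0.45 ± 0.17 (adjusted p = 0.0889 and 0.0884). No sterol enzyme was called, and 0 had an unadjusted p below 0.05 in edgeR, beside 3217 of all 13852 genes. The changes of the sterol enzymes ran from −1.09 for Idi1 to 0.58 for Tm7sf2, with a median of −0.08. The call of Elovl6 was lost without proline 1 (adjusted p = 0.119), both 1 (0.0681) or both 3 (0.0576) and with the length offset (0.0532), and without proline 1 none of the 32 was called.

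Set against budesonide alone, cells given both had higher Scd1 and Scd2 and no lower member, where 0.874% of all tested genes rose, 0.592% fell and 1.47% were called. Libraries did not overlap for 8 higher members and 1 lower member, where 10.2% and 9.23% of all genes did not, or 19.4% in either direction. Scd2 was 220, 235 and 238 CPM with both, against 123, 109 and 129 CPM with budesonide, a log2 change of 0.94 ± 0.18 (adjusted p = 0.00708) that held under all 13 alternatives. Scd1 was 29.8, 43.1 and 56.7 CPM with both, against 21.8, 20.5 and 14.6 CPM with budesonide, a change of 1.19 ± 0.29 (adjusted p = 0.0374). The Scd1 call was lost without budesonide 1 (adjusted p = 0.0635), budesonide 2 (0.0654), budesonide 3 (0.141), both 2 (0.11) or both 3 (0.234). Cyp51 did not overlap, at 0.65 ± 0.17, but missed the threshold (adjusted p = 0.0636).

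Whether budesonide altered the proline effect was tested as the interaction, the proline effect with budesonide minus that without it. No member was called, where 0.411% of all genes had a positive and 0.0578% a negative interaction called, 0.469% in all. An unadjusted p below 0.05 in edgeR was found for 6 of the 32 and for 1198 of all 13852 genes. The member nearest to the threshold was Elovl6, whose proline effect was 0.11 ± 0.14 with budesonide and −0.71 ± 0.15 without it, an interaction of 0.82 ± 0.20 (adjusted p = 0.0771). It passed without budesonide 3 (adjusted p = 0.0387), without proline 2 (0.0434) and with DESeq2 (0.0191). Fads2, Hsd17b7, Nsdhl, Fasn and Idi1 had negative interactions at an unadjusted p below 0.05, of −0.95 ± 0.33, −1.71 ± 0.58, −0.84 ± 0.34, −0.48 ± 0.18 and −3.73 ± 1.62 (adjusted p = 0.351, 0.328, 0.467, 0.415 and 0.51). For the desaturases Scd1 and Scd2 the interactions were 0.07 and −0.22, with 95% intervals of −0.78 to 0.92 and −0.74 to 0.30. The interval for Insig1 was −0.96 to 1.07 and that for Srebf1 −0.34 to 1.92, so these intervals are wide.

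**Figure D5:**
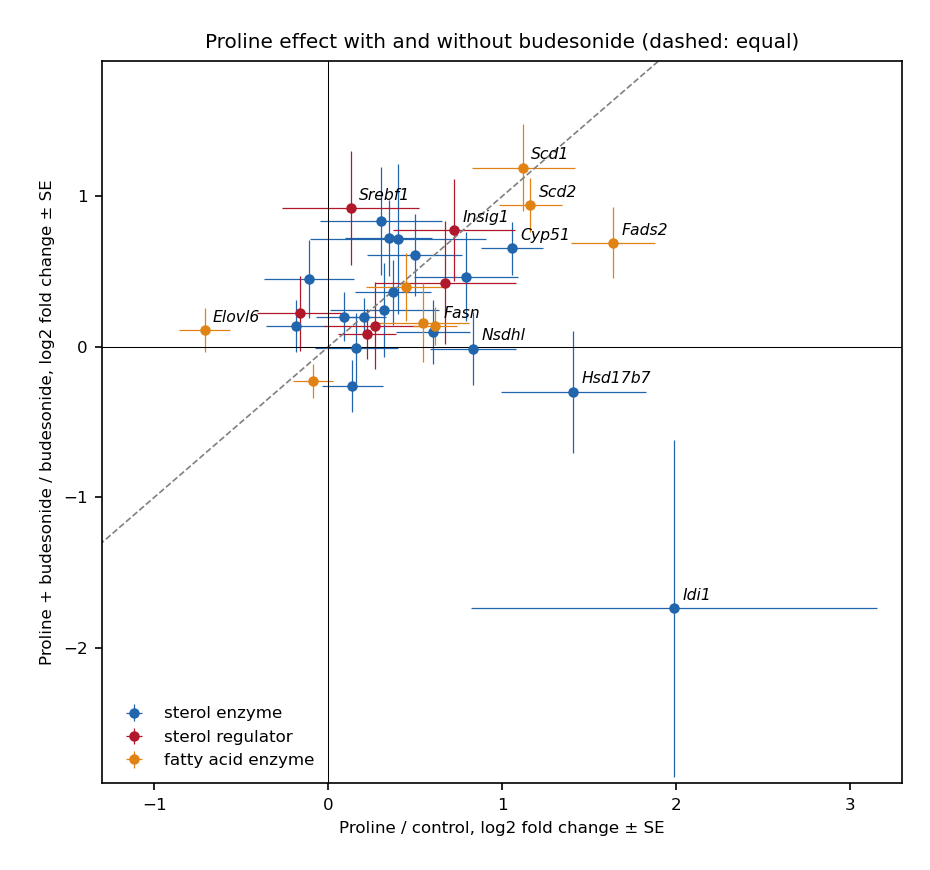
Proline effect (log2 fold change with SE) with budesonide on the y axis, against the proline effect without it on the x axis, for the 32 genes; the dashed line marks equal effects. Scd1, Scd2 and Insig1 lie near the line, Elovl6 lies above it, and Fads2, Fasn, Nsdhl, Hsd17b7 and Idi1 lie below it.

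Other genes around the pathway were read from 4 further lists. A list of 20 sterol genes outside the 32 covered further steps, storage, transport and the cutting of the Srebf proteins. Against control 2 rose with proline, 1 with budesonide and 3 with both, where 3.17%, 2.51% and 3.34% of all genes rose. None fell, where 4.71%, 4% and 3.83% of all genes fell, and nothing is read from that. Soat1, which esterifies cholesterol for storage, had 66.4, 64.4 and 67.1 CPM with proline, 28.5, 33.8 and 39.8 with budesonide, 51.2, 35.7 and 41.9 with both, and 35.8, 31 and 31 in control. The libraries given proline alone lay above all others. Soat1 rose by 1.02 ± 0.20 with proline (adjusted p = 0.0018), and it was lower with both than with proline, at −0.62 ± 0.20 (adjusted p = 0.0454). The lysosomal cholesterol transporter genes Npc1 and Npc2 were higher with both than with proline, by 1.30 ± 0.27 and 0.69 ± 0.17 (adjusted p = 0.00229 and 0.0088), and Npc2 rose by 0.87 ± 0.17 with both against control (0.00193). Mbtps1, whose product cuts the Srebf proteins, was 0.41 ± 0.13 higher with both than with proline (adjusted p = 0.0392).

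Of 25 further lipid synthesis genes tested, 3 rose with proline, 0 were called with budesonide and 2 rose with both. Of all genes 3.17% rose with proline and 3.34% with both. With budesonide 3 of the 25 had an unadjusted p below 0.05 in edgeR, beside 2769 of all 13852 genes. Mid1ip1, whose product activates the acetyl-CoA carboxylases, stood at 48.3 ± 8.54 CPM with proline and 13.8 ± 3.69 in control and rose (adjusted p = 0.000476). Acsl3, an acyl-CoA synthetase, rose by 0.99 ± 0.21 with proline (adjusted p = 0.00299) and by 1.12 ± 0.21 with both (0.00131). Tecr, the last enzyme of the elongation cycle in which Elovl6 takes the opening step, rose by 0.44 ± 0.13 with proline (adjusted p = 0.0451), and the citrate carrier Slc25a1 by 0.79 ± 0.17 with both (0.00431). Of 14 fatty acid oxidation genes tested, 1 rose with proline, 2 fell with budesonide and 1 rose with both, few enough that nothing is read from the counts beside the 7.88%, 6.51% and 7.17% of all genes called. The risers were Hadh, an oxidation enzyme, in both cases, and those that fell were Acadl (−1.06 ± 0.31) and Eci1 (−0.99 ± 0.25). Cpt1a, the gate for fatty acids into mitochondria, was 33.7, 30 and 29.1 CPM with both, against 6.87, 8.44 and 13.5 CPM with proline, a log2 change of 1.70 ± 0.29 (adjusted p = 0.000449).

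Of 6 tested genes of the oxysterol receptor LXR and its targets, which include Srebf1 in other cells, 1 rose and 1 fell with proline. With budesonide 1 fell, and with both 2 rose. Of all genes 7.88%, 6.51% and 7.17% were called in these comparisons, and with 6 genes nothing is read from the counts. Abca1, the cholesterol exporter, had 5.04, 9.18 and 4.45 CPM with proline, 28, 21.2 and 36.5 with budesonide, 43.7, 49.4 and 38.9 with both, and 17.7, 22.2 and 6.63 in control. Its libraries given both lay above all others, as did those of Abcg1, another exporter, and of Srebf1. Abca1 changed by 1.51 ± 0.35 and Abcg1 by 1.73 ± 0.50 for both against control (adjusted p = 0.00843 and 0.0356). The other 4 of the 6 were not called there, with log2 changes down to −0.72. Arl4c, a small GTPase and LXR target, took another course, at 54.1 ± 10.9 CPM with proline, 8.72 ± 2.23 with budesonide, 24.1 ± 5.65 with both and 16.7 ± 3.72 in control.

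Genes outside the list that followed each branch most closely were found by the correlation of their log2 CPM, over the 12 libraries, with the mean standardised level of the branch. For the sterol enzymes these were Card19, Hdac9, Ube2j2, Snhg1, Tdp1 and Cad, with correlations of 0.94 to 0.95. For the fatty acid enzymes they were Firre, Crip1, Canx, Zfp524, Slc38a2 and Usp10, with correlations of 0.914 to 0.972. The 12 libraries fall into 4 groups, and these values describe those libraries only.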

How the data were processed

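Per the labels' protocols, libraries of polyadenylated RNA were made with a 3′ end kit (QuantSeq), which gives about 1 fragment per transcript. Tools listed in the submitters' processing notes, without their roles, are STAR 2.7.5c, featureCounts 2.0, cutadapt 2.5, bcl2fastq and DESeq2, beside the GRCm39 build. The authors deposited whole-number counts of 53819 gene symbols in 12 libraries, which were used as deposited; a rescaled table was not used. Members and gene lists were chosen with earlier results of these data known.

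Genes were kept by filterByExpr (minimum count 10, minimum total 15) and scaled by TMM. The two-sided quasi-likelihood F test of edgeR 4.0.16 in R 4.3.3 used all 12 libraries in a single model of group means, leaving 8 residual degrees of freedom. The standard error (SE) was obtained by dividing the size of the log2 change by the root of F, and 95% intervals use the degrees of freedom of the test. Folds of low genes depend on the prior count of 0.125. The test was checked on simulated data. Named genes are all 32 members, up to 4 called genes with the smallest adjusted p per further list and comparison, and the 6 genes most like each branch. Replicates were not repeats of each other (chi-square per degree of freedom 5.55 or higher). Alternatives were DESeq2 1.42.0 (its test, or its size factors in edgeR), no filter, a replicate block, leaving out libraries, fitting only the groups compared, and, chosen after seeing the data, an offset for transcript length, known for 97.7% of genes from GENCODE. Overlapping genes were read from the same annotation (GRCm38) and matched by symbol. Some genes of the further lists are not reported here.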

Additional observations from a re-analysis of the deposited data

How the results depend on the processing

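Over the 32 genes and 6 comparisons, 2655 values were refitted under alternatives: none reversed a called direction, 55 lost a call and 24 gained one, and 12 of the 23 calls held throughout. Replicate numbers showed no visible pairing: the correlations of same-numbered libraries' deviations ran from −0.0359 to 0.0529. Whether same-numbered libraries were set up together is not given in the labels, and correlations from 3 libraries per group cannot exclude it. With the replicate block, 1 of the 32 in place of 2 and 128 of all genes in place of 203 were called for both against budesonide. The block also ended the calls of Nsdhl for proline against control (adjusted p = 0.0548) and Srebf2 for budesonide against control (0.0511). Leaving out 1 library gave 5 to 6 members called for proline against control (8 with all), 1 to 3 for budesonide against control (3), 0 to 2 for both against proline (2), 6 to 8 for both against control (8), 1 to 2 for both against budesonide (2) and 0 to 1 for the interaction (0). For all genes the ranges were 674 to 887 (1091), 620 to 809 (902), 836 to 1095 (1399), 535 to 789 (993), 80 to 171 (203) and 44 to 89 (65). Without control 3 and budesonide 3 together, 5 members were called for both against proline, 1 for both against budesonide and 1 for the interaction, and 575 of all genes for budesonide against control. Fitting only the groups compared gave 5 members for both against proline and 1 for both against budesonide, and 493 of all genes for budesonide against control and 120 for both against budesonide. With no low-count filter, 4 members were called for both against proline and 1 for the interaction, and 354 of all genes for both against budesonide and 134 for the interaction. DESeq2 called 1 member for the interaction, and 419 of all genes for both against budesonide and 146 for the interaction. With the length offset, 0 members were called for budesonide against control and 1 for both against proline. The cause of these shifts was not tested. Low counts limit Idi1, Tm7sf2 and Hsd17b7 most, with as few as 0, 25 and 27 counts in a library.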
